A study of Homo sapiens with 18 samples.

Results

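The genes described here are 9 regulators of the p53 and RB pathways, MDM2, MDM4, CDKN1A, CDKN1B, CDKN2A, CDKN2B, CDKN2C, MTAP and RB1. They were chosen by symbol from a table of 55766 genes, and 6 of the 9 passed the filter on low counts. The cells were K562, an established human erythroleukaemia line, and all groups carried a B2M:tdTomato transgene. The untreated cells received no repressor. The TALE cells were treated with plasmids for 3 different ATRs, or artificial transcriptional repressors, built on TALE DNA-binding proteins, and the plasmid for the D3A-based one was given at 1 ug. The dCas9 cells received the dCas9 versions, with the D3A-based plasmid also at 1 ug, and 250 ng of a guide RNA plasmid. The labels call both treated groups silenced. RNA-seq and MeDIP-seq, which sequences DNA captured with an antibody against 5-methylcytosine, each covered 3 samples per group. The labels do not give the collection time or say whether the replicates were separate cultures, so p-values measure only the spread between these samples, which may be technical.

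p53 is a transcription factor that halts the cell cycle or triggers cell death after DNA damage. MDM2 is the ubiquitin ligase that marks p53 for degradation, and MDM4 is its relative that binds p53 and blocks its activity. p53 induces CDKN1A, which codes for the CDK inhibitor p21. CDK inhibitors keep the RB protein in the form that holds back E2F transcription factors and so entry into S phase. K562 is known to have lost the CDKN2A locus on the short arm of chromosome 9, where CDKN2A, CDKN2B and MTAP are neighbours.

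The RNA totals were between 8460076 and 12050554 counts per library, and the MeDIP totals within the listed regions were between 2529729 and 4492751. All 18 erythroid and K562 markers were above 1 CPM (counts scaled to the library total), with summed levels between 7590 and 11500 CPM per library. Of the markers of other cells, 2 of 8 lymphoid, 1 of 8 monocyte and granulocyte, 1 of 6 epithelial and 2 of 6 stromal genes were above 1 CPM. The summed lymphoid level was 26.2 to 28.3 CPM in untreated, 17.4 to 29.2 CPM in TALE and 25.9 to 34.9 CPM in dCas9 libraries. The summed epithelial level was the highest of these other lists, at 97.9 to 111, 95.6 to 118 and 85 to 116 CPM in the same order.

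The RNA of the 9 genes fell into a group of 6 that was expressed in all 9 libraries and a group of 3 from 9p21 that was at or near 0 counts. Per kilobase of the canonical transcript, the mean level over all libraries was 35.88 CPM for CDKN2C, 21.24 for RB1, 18.46 for MDM2, 10.12 for CDKN1B, 6.109 for MDM4 and 1.253 for CDKN1A. The SD over the 9 libraries was 2.823 for CDKN2C, 1.247 for RB1, 1.506 for MDM2, 1.13 for CDKN1B, 0.6076 for MDM4 and 0.3209 for CDKN1A. Neighbours in this order were separated by more than the sum of their SDs, most narrowly RB1 and MDM2. The order rests on the transcript length: with the length of all annotated exons it was MDM2, RB1, CDKN2C, MDM4, CDKN1B and CDKN1A, at 16.64, 15.74, 11.83, 5.578, 2.637 and 0.8851 CPM per kb. CDKN1A was lowest on either scale.

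**Figure D1:**
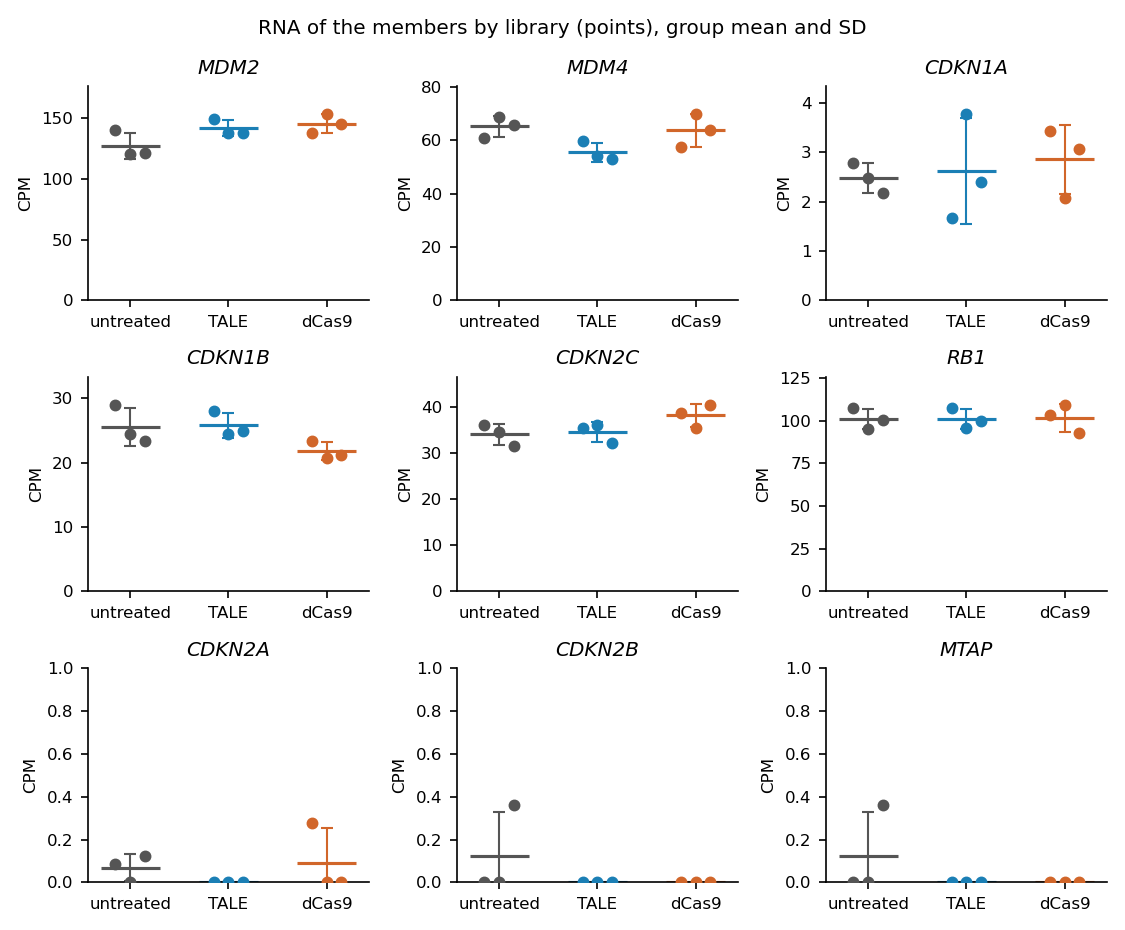
RNA level of each member in CPM (counts scaled to the library total, y axis from 0) in the 3 untreated, 3 TALE and 3 dCas9 libraries; points are libraries, horizontal lines the group means and bars the SD. MDM2, MDM4, CDKN1A, CDKN1B, CDKN2C and RB1 were above 0 in every library, while CDKN2A, CDKN2B and MTAP were at 0 in 6, 8 and 8 of 9 libraries.

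No member passed an adjusted p of 0.05 in edgeR's quasi-likelihood test in any of the 3 comparisons. Over all 13786 genes tested, 0.0218% passed between TALE and untreated cells, 0.029% between dCas9 and untreated cells and 0% between TALE and dCas9 cells. In the same order edgeR called 3, 4 and 0 genes, and DESeq2 called 9, 29 and 0. At an unadjusted p under 0.05 the shares of all genes were 7.15%, 5.93% and 6.38%, and 0 of the 6 tested members reached it in any comparison. In simulated counts for TALE against untreated over 13786 genes, the same test recovered 85% of 2-fold and 98% of 4-fold changes. Those counts were drawn with 1 common spread for all genes and 200 changed genes. The shares may thus not hold for a single member, such as CDKN1A with its 17 to 49 counts.

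MDM2 lies on chromosome 12 (GRCh37, 69201957 to 69239324, plus strand). Its inner promoter holds a match to the p53 site consensus, and the 250 bases before that transcript start are shown because this is the promoter through which p53 is known to drive MDM2. The sequence is from RefSeq on GRCh38.p14 (chr12:68808767-68809016, plus strand), 5′ to 3′, with the matched site in capitals.
MDM2 inner promoter: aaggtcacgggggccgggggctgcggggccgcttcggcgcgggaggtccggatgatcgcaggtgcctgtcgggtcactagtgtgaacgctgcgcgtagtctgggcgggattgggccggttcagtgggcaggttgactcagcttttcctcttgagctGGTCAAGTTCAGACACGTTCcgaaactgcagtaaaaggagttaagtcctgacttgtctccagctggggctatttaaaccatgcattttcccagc
The consensus spans 20 bases, read without a spacer and with at most 2 mismatches outside its fixed core bases, and it is the same on both strands. Windows of 300 bases around 35116 transcript starts held such a match in 0.285% of cases. All 9 members matched the promoter table, with 15 windows, and within these the match was found only in the windows of the inner MDM2 starts. The only RB1 window (GRCh38.p14, chr13:48476200-48476499) held 0 CpG sites and was not compared with the canonical RB1 start. The promoter at that canonical start may thus not have been searched. Sites outside the windows were not searched. A match describes these letters and is not a measured binding site.

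MDM2 RNA was 139.9, 120.2 and 121.6 CPM in the untreated libraries, 149.5, 138.0 and 138.0 CPM in the TALE libraries, and 137.9, 153.5 and 145.5 CPM in the dCas9 libraries. Untreated library 1 lay inside the range of each treated group, so the groups overlapped. The log2 fold change was 0.16 (SE 0.112, 95% interval -0.08 to 0.39, edgeR adjusted p = 0.805) for TALE against untreated. It was 0.19 (SE 0.112, 95% interval -0.04 to 0.43, edgeR adjusted p = 0.904) for dCas9 against untreated. TALE and dCas9 differed by -0.04 (95% interval -0.27 to 0.20).

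MDM4 (chromosome 1, 204485507 to 204527248, plus strand) was 60.74, 68.83 and 65.71 CPM in untreated cells. It was 59.48, 53.95 and 52.88 CPM with TALE, and 57.36, 69.78 and 63.85 CPM with dCas9. All 3 TALE libraries were below all 3 untreated libraries, and the dCas9 libraries spanned the untreated range. Of all tested genes, 12.5% had groups that did not overlap in that comparison. The log2 fold change was -0.23 for TALE against untreated (SE 0.113, 95% interval -0.47 to 0.0073), with an unadjusted p of 0.0567 and an adjusted p of 0.713 in edgeR. The exact two-sided permutation p was 0.1, the smallest that 3 against 3 libraries allow. For dCas9 against untreated the log2 difference was -0.03, with a 95% interval of -0.27 to 0.21. TALE and dCas9 differed by -0.20 (95% interval -0.44 to 0.04, edgeR adjusted p = 0.817), and by -0.13 without dCas9 library 2.

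CDKN1A, which codes for p21, lies on chromosome 6 (36644237 to 36655114, plus strand) and had the lowest level of the 6 expressed members. It had 32, 20 and 18 raw counts in untreated, 17, 49 and 26 in TALE, and 37, 20 and 31 in dCas9 libraries. In CPM these were 2.79, 2.47 and 2.18, then 1.67, 3.78 and 2.41, then 3.43, 2.07 and 3.07. TALE libraries 1 and 2 were the lowest and the highest of all 9. The log2 fold change was 0.09 (95% interval -0.61 to 0.79) for TALE and 0.20 (95% interval -0.50 to 0.90) for dCas9 against untreated. These intervals are the widest of the 6 tested members, and a change inside them was not detectable at this depth.

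CDKN1B codes for p27, the CIP/KIP relative of p21 (chromosome 12, 12838432 to 12875303, plus strand). Its RNA was 28.98, 24.47 and 23.35 CPM in untreated, 28.03, 24.43 and 24.91 CPM in TALE, and 23.45, 20.81 and 21.22 CPM in dCas9 libraries. The dCas9 libraries lay below all 3 TALE libraries, while dCas9 library 1 was just above the lowest untreated one. The log2 fold change for TALE against dCas9 was 0.24 (SE 0.130, 95% interval -0.03 to 0.51, edgeR adjusted p = 0.814), and the exact two-sided permutation p was 0.1. Of all tested genes, 9.38% had groups that did not overlap in that comparison. Against untreated, the values were 0.0047 for TALE (95% interval -0.27 to 0.28) and -0.23 for dCas9 (95% interval -0.51 to 0.04, edgeR adjusted p = 0.899). The dCas9 value was -0.13 without untreated library 1.

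CDKN2C codes for p18, an INK4 protein that inhibits CDK4 and CDK6, and lies outside 9p21 on chromosome 1 (51426417 to 51440306, plus strand). It was 36.13, 34.60 and 31.70 CPM in untreated, 35.47, 36.30 and 32.23 CPM in TALE, and 38.83, 35.51 and 40.55 CPM in dCas9 libraries. The dCas9 mean of 38.3 ± 2.56 CPM (SD, n = 3) was above the untreated mean of 34.15 ± 2.25 CPM (SD, n = 3), with overlapping libraries. The log2 fold change was 0.021 (95% interval -0.22 to 0.26) for TALE and 0.16 (95% interval -0.08 to 0.41, edgeR adjusted p = 0.947) for dCas9 against untreated.

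RB1 codes for the RB protein (chromosome 13, 48877880 to 49173572, plus strand). Its RNA was 107.4, 95.4 and 100.2 CPM in untreated, 107.5, 95.57 and 99.84 CPM in TALE, and 103.3, 109.2 and 92.99 CPM in dCas9 libraries. The groups lay over each other, with means of 101.0, 101.0 and 101.8 CPM. The 95% intervals of the log2 fold changes were -0.24 to 0.23 for TALE and -0.22 to 0.25 for dCas9 against untreated. LPAR6 lies within an intron of RB1 on the other strand, and the use of strand in counting was not given in the sources used here.

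**Figure D2:**
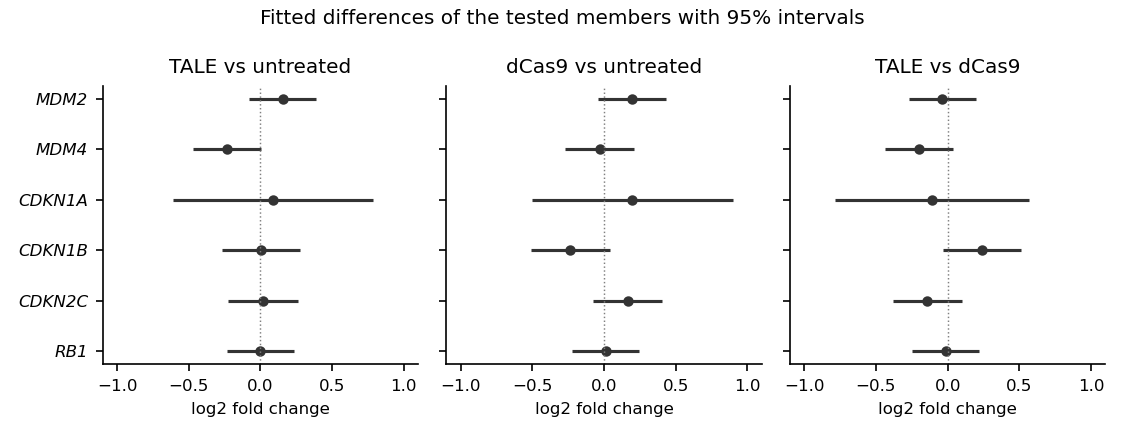
Log2 fold changes (x axis) of the 6 tested members (y axis) in the 3 comparisons; points are the fitted values and lines their 95% intervals. All 18 intervals include 0, and those of CDKN1A are the widest.

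The members varied among themselves over the 9 libraries without a shared pattern. The SD of log2(CPM + 0.5) was smallest for RB1, at 0.0844, and largest for CDKN1A, at 0.312. Pearson's r of log2(CPM + 0.5) between members ranged from -0.52 for CDKN1A with RB1 to 0.53 for CDKN1A with CDKN2C, as a description over 9 libraries that share their depth and groups. MDM2 with MDM4 had an r of -0.17. Among 13785 other tested genes, those most like MDM2 were ANO6 (r = 0.987) and UPF3A (r = 0.953). MDM4 was most like LRRFIP1P1 (0.963) and DDX39B (0.956), CDKN1A most like PPP2R5A (0.939) and SNORA71C (0.903), and CDKN1B most like PNPT1 (0.945) and RPUSD4 (0.945). For CDKN2C the genes were VAPB (0.968) and GXYLT2 (0.933), and for RB1 they were ACBD5 (0.943) and ZNF180 (0.936). An r over 0.9 was reached by 30 genes with MDM2, 37 with MDM4, 2 with CDKN1A, 17 with CDKN1B, 4 with CDKN2C and 13 with RB1. The named genes are the highest of 13785 correlations over only 9 libraries, where unrelated genes can also reach high values. Shared regulation was not tested.

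The other genes of the pathways were read from 8 lists with 177 genes. No listed gene passed an adjusted p of 0.05 in edgeR in any comparison. Among 22 p53 pathway core genes, all tested, the median log2 fold change was 0.0144 for TALE and 0.0116 for dCas9 against untreated, beside 0.0024 and -0.0031 over all genes. TP73, which codes for a relative of p53, was at 3.52, 4.46 and 5.20 CPM in untreated, TALE and dCas9 cells, with a log2 difference of 0.58 for dCas9 against untreated (unadjusted p = 0.0201, adjusted p = 0.726 in edgeR). RPL5 and RPL11, ribosomal proteins that bind MDM2, had the highest levels per length of this list, at 2831 and 2053 CPM per kb.

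Of 40 p53 target genes 33 were tested, 15 with positive and 18 with negative fitted differences for TALE and 17 and 16 for dCas9 against untreated. At an unadjusted p under 0.05, 1 was higher and 3 were lower with TALE, where 2.86% and 4.29% of all genes were. With dCas9, 0 were higher and 2 were lower, where 3.1% and 2.83% of all genes were. Between TALE and dCas9, 0 were higher and 1 was lower, where 2.6% and 3.79% of all genes were. The targets with the highest level per length were CCNG1, at 104.2 CPM per kb, and GADD45A, at 100.7 CPM per kb.

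All 19 genes of the RB and E2F family were tested, and their medians were 0.0442 for TALE and -0.0749 for dCas9 against untreated. E2F5, a repressive E2F, was at 18.65, 17.97 and 15.18 CPM in untreated, TALE and dCas9 cells, with a dCas9 log2 difference of -0.30 (unadjusted p = 0.0471, adjusted p = 0.836 in edgeR). RBBP7 and TFDP1 had the highest levels of that list, at 69.49 and 41.78 CPM per kb, and E2F1 was at 3.37 CPM per kb. Of 7 CDK inhibitors 5 were tested. CDKN1C, which codes for p57, was at 29.21, 24.42 and 23.78 CPM (adjusted p = 0.748 and 0.843 in edgeR for TALE and dCas9). CDKN2D, which codes for the INK4 protein p19, was at 2.39, 2.77 and 2.60 CPM.

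CDK4, which INK4 proteins inhibit, was at 59.16, 70.36 and 56.06 CPM in untreated, TALE and dCas9 cells. Its log2 difference was 0.33 for TALE against dCas9 (unadjusted p = 0.0193, adjusted p = 0.745 in edgeR). CDK6 was at 290.7, 325.7 and 296.8 CPM. Of 15 G1 cyclins and CDKs 14 were tested, with medians of 0.0408 for TALE and -0.0752 for dCas9 against untreated, and CCND3 and CCNH had the highest levels at 91.57 and 90.77 CPM per kb. Among 35 E2F target genes of S phase, all tested, 28 had positive fitted values for TALE against untreated, where 50.6% of all genes did, and the median was 0.0719. For dCas9 against untreated 17 of the 35 did, with a median of -0.0162. MCM6, a helicase subunit, was at 171.6, 188.5 and 151.3 CPM (TALE against dCas9 0.32, adjusted p = 0.745 in edgeR), and CDC45 and CCNA2 were highest at 168.6 and 150.2 CPM per kb.

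**Figure D3:**
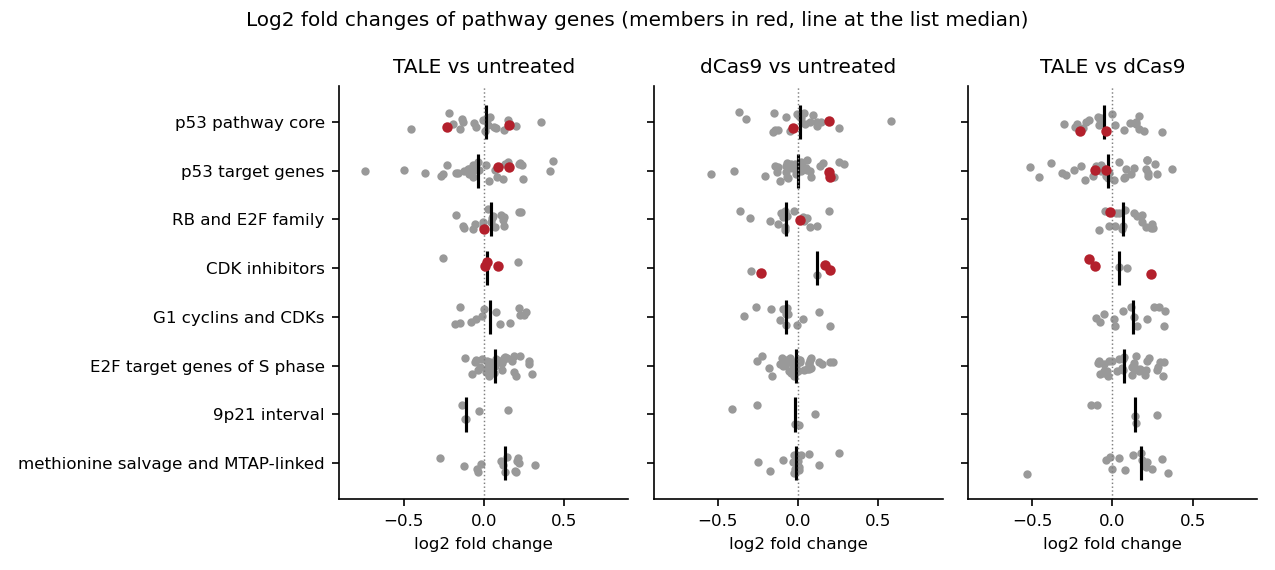
Log2 fold changes (x axis) of the tested genes of the 8 lists (y axis) in the 3 comparisons; red points are members, grey points other listed genes and black lines the list medians. The lists include the members, and CDKN1B (0.24) and CDKN2C (-0.14) are the ends of the CDK inhibitor list between TALE and dCas9; the list medians are between -0.113 and 0.18.

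The remaining 3 members lie on chromosome 9 next to each other, MTAP at 21802635 to 21937650 on the plus strand, CDKN2A at 21967751 to 21995300 and CDKN2B at 22002902 to 22009304 on the minus strand (GRCh37). CDKN2A codes for the INK4 protein p16 and for ARF, an inhibitor of MDM2, CDKN2B codes for the INK4 protein p15, and MTAP is a methionine salvage enzyme. CDKN2A had 1, 0 and 1 raw counts in untreated, 0 in each TALE, and 3, 0 and 0 in dCas9 libraries. CDKN2B and MTAP each had 3 counts in untreated library 3 and 0 in the other 8 libraries. Summed over all libraries this was 0.0542 CPM for CDKN2A (exact Poisson 95% interval 0.0176 to 0.126) and 0.0325 CPM for each of CDKN2B and MTAP (0.0067 to 0.095), intervals that cover counting error only. Where a group had 0 counts, the limit of 3 counts allows up to 0.0883 CPM over the TALE libraries and 0.0982 CPM over the dCas9 libraries. Per kilobase, the upper bound for CDKN2A was 0.129 CPM, against 1.28 CPM for CDKN1A over the same libraries. None of the 3 passed the filter, so no comparison between groups was made.

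The low counts at protein-coding genes around these 3 members came mostly from 1 library. The 25 protein-coding genes inside the stretch of chromosome 9 nearly without MeDIP counts, from 20731367 to 26806385, had 46 counts in all, of which 32 were in untreated library 3 and 10 in untreated library 1. Without untreated library 3 the sum was 14. Of all 19150 protein-coding genes, 19.9% had 0 to 5 counts over the 9 libraries, so such low counts alone were not rare. The 25 genes include type I interferon genes, among them IFNB1 and IFNA2. Over all 51 genes of any type inside the stretch the sum was 493, of which 60 were in untreated library 3. The same library had a count at 17180 protein-coding genes, against 13521 to 14932 in the others, and held 45.9% of the counts at the 2865 protein-coding genes with 1 to 5 counts in all. Its part in the 9p21 counts was not tested.

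MeDIP gave no listed region and no peak in any of the 9 samples from 2 kb before to 2 kb after CDKN2A, CDKN2B and MTAP. The reference sequence before the p16 start is shown to mark the CpG sites of this promoter, which could be captured only from cells that hold the locus, from RefSeq on GRCh38.p14 (chr9:21974858-21975107, minus strand), 5′ to 3′, with its 20 CpG sites in capitals.
CDKN2A p16 promoter: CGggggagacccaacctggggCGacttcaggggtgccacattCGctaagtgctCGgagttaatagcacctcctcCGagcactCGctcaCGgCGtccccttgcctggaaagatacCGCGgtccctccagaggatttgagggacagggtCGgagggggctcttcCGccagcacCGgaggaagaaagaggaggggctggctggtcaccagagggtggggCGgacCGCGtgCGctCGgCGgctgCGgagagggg
No listed region lay between 20731367 and 22597503 on chromosome 9, a stretch of 1.866 Mb with 6.73 CpG sites per kb in the reference. Chromosome 9 as a whole had 10.21 CpG sites per kb, so the stretch was poorer in CpG sites. Regions with at least 10 counts over the 9 libraries were absent up to 26806385, a stretch of 6.075 Mb that held 2 regions with 2 counts in all. Among gaps over 200 kb, the stretch of 1.866 Mb ranked 29 of 2426 with all listed regions, where the longest gap was 5.518 Mb. The stretch of 6.075 Mb ranked 2 of 2254 with the minimum of 10 counts, where the longest gap was 6.692 Mb. Outside it, 107 of 423 bins of 250 kb on chromosome 9 also held no region, so an empty bin alone was not rare.

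Beyond the right edge of the wide stretch both readouts returned, and CAAP1 there had 3140 RNA counts in all. The left edge was less sharp. FOCAD (20658308 to 20995954) spans it with most of its length inside the stretch and had 211 RNA counts. The bin of 250 kb starting at -1.5 Mb from the CDKN2A start held 9 regions. Those at -1.75 and -2.0 Mb held 0, and that at -2.75 Mb held 50. The region at the left edge (20730905 to 20731366) had 56 MeDIP counts and that at the right edge (26806386 to 26806672) had 31. CAAP1 and PLAA, the highest of the 5 tested of the 32 genes of the 9p21 list, were at 12.16 and 6.74 CPM per kb. The pattern was shared by the 3 groups and gives no contrast between them. The table lists only regions with a peak in some sample, so a deletion and an interval with neither RNA nor captured methylated DNA cannot be told apart in these files.

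**Figure D4:**
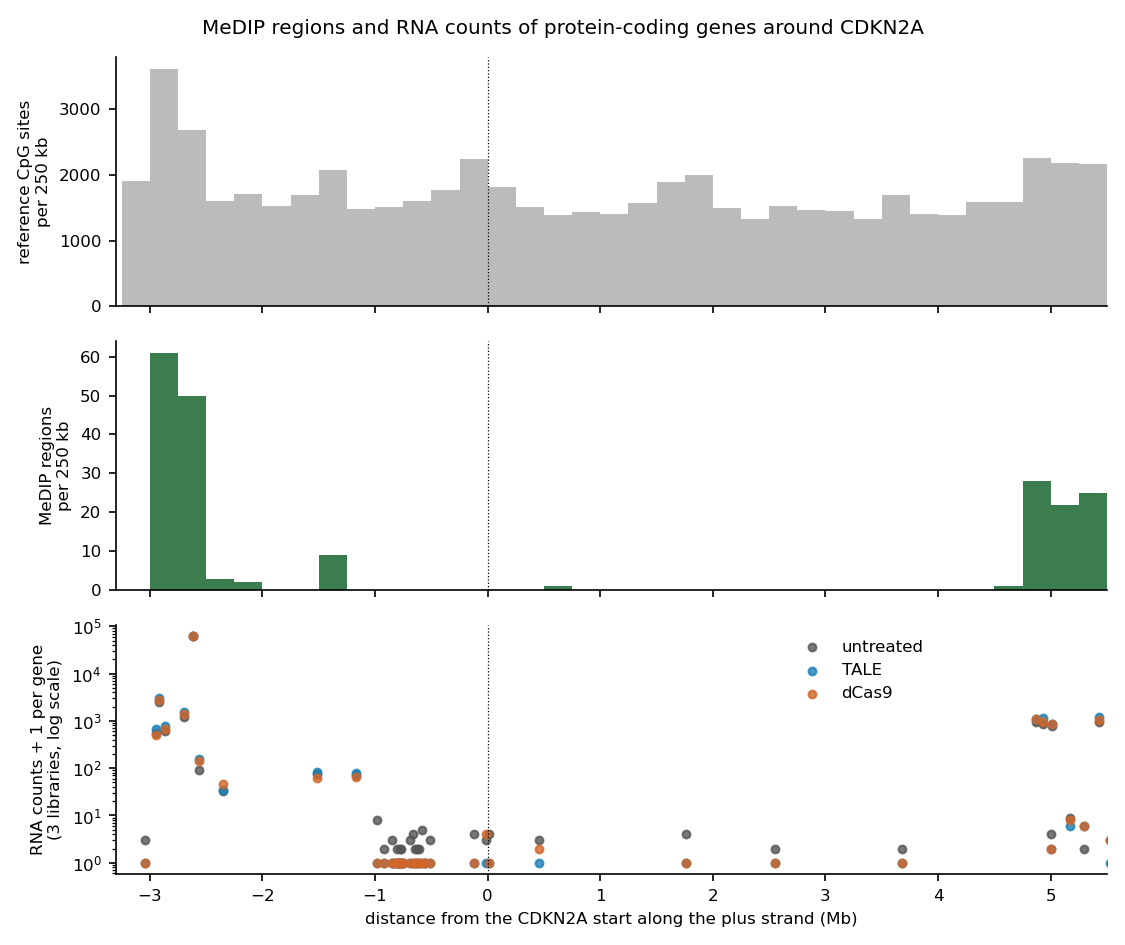
Reference CpG sites per 250 kb (top), MeDIP regions per 250 kb (middle) and RNA counts plus 1 of each protein-coding gene summed over 3 libraries per group (bottom, log scale), against the distance from the CDKN2A start in Mb. CpG sites continue through the stretch of 6.075 Mb, at 6.32 per kb against 10.21 per kb over chromosome 9. Regions and RNA counts are at or near 0 around CDKN2A and return beyond 4.75 Mb.

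Genes that act in the same route as MTAP were measured through a list of 16 methionine salvage and MTAP-linked genes, of which 15 were tested and 0 passed. Their median log2 fold change was 0.13 between TALE and untreated cells, -0.0149 between dCas9 and untreated cells and 0.18 between TALE and dCas9 cells, beside 0.0024, -0.0031 and 0.0017 over all genes. SRM and ODC1, enzymes of polyamine synthesis, had the highest levels at 364.9 and 218.8 CPM per kb. SAT1, which acetylates polyamines for export or breakdown, was at 13.06, 10.79 and 15.63 CPM in untreated, TALE and dCas9 cells (TALE against dCas9 -0.53, unadjusted p = 0.0212, adjusted p = 0.745 in edgeR). The SAT1 difference was -0.31 without TALE library 1 and -0.81 without TALE library 3.

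Around the 6 expressed members, from 2 kb before to 2 kb after each gene, the table listed 72 MeDIP regions. RB1 had 37, MDM4 16, MDM2 13, CDKN1B 3, CDKN1A 2 and CDKN2C 1. By position, 61 lay in introns only, 6 overlapped an exon of an annotated transcript and 5 lay before or after the gene. Of the 72, 29 passed the filter and 0 had an adjusted p under 0.05 in edgeR in any comparison, where the shares of all 105652 regions were 0% between TALE and untreated, 0.000947% between dCas9 and untreated and 0.000947% between TALE and dCas9. An unadjusted p below 0.05 was reached by 2, 2 and 0 of the 29 in the 3 comparisons, and by 4.74%, 4.69% and 4.47% of all regions. The groups did not overlap at 4, 6 and 1 of the 29, and at 10.2%, 10.3% and 9.97% of all regions. In counts simulated in the same way as for RNA, over 105652 regions for TALE against untreated, the test recovered 13% of 2-fold and 77% of 4-fold changes. Smaller changes at single regions were thus mostly not detectable at this depth.

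CDKN1A and CDKN2C each had 1 tested region, given here on GRCh37. The CDKN1A region (chr6:36649323-36649612, with 15 CpG sites) is intronic, with its centre 2976 bp after the canonical start. The CDKN2C region (chr1:51430452-51430766, with 10 CpG sites) is intronic to a longer transcript and lies before the canonical start. The CDKN1A region had 17, 8 and 8 counts in untreated, 3, 3 and 27 in TALE, and 15, 23 and 9 in dCas9 libraries. TALE library 3 was the highest and the other TALE libraries the lowest of all 9. The log2 fold changes were -0.02 (SE 0.517) for TALE and 0.51 (SE 0.479) for dCas9 against untreated. The CDKN2C region had a peak in all 9 samples, with 33, 15 and 38 counts in untreated, 21, 30 and 43 in TALE, and 13, 40 and 22 in dCas9 libraries. Its groups overlapped, with log2 fold changes of 0.22 (SE 0.302) and -0.18 (SE 0.311).

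The region of MDM2 nearest to the start that was tested was intronic (chr12:69203820-69204921, with 33 CpG sites) and had a peak in all 9 samples. It had 50, 47 and 72 counts in untreated, 39, 51 and 59 in TALE, and 60, 74 and 40 in dCas9 libraries, with overlapping groups. A second intronic MDM2 region (chr12:69210185-69210480) had the smallest unadjusted p of that gene. It was lower, with 5, 5 and 2 counts in untreated, 9, 13 and 7 in TALE, and 10, 14 and 7 in dCas9 libraries. Its log2 fold changes were 1.36 (SE 0.704, unadjusted p = 0.0558) and 1.34 (SE 0.699, unadjusted p = 0.0594) in edgeR, with adjusted p = 0.9997 and 1.0.

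MDM4 held the most captured DNA of the members, with 6321 counts over its 16 regions and a peak in all 9 samples at 10 of them. The region before its start (chr1:204482679-204484837) was at 19.05, 19.95 and 20.86 CPM in untreated, 23.1, 20.41 and 20.6 CPM in TALE, and 25.68, 22.33 and 26.34 CPM in dCas9 libraries. All dCas9 libraries were above the untreated ones, where 10.3% of all regions had groups that did not overlap in either direction, with a log2 fold change of 0.30 (SE 0.201, edgeR adjusted p = 1.0). The intronic region just after the start (chr1:204486549-204486941) was at 16.28, 15.7 and 14.01 CPM in untreated and 12.93, 11.78 and 10.16 CPM in TALE libraries, and dCas9 overlapped both at 11.06, 16.88 and 14.25 CPM. Its log2 fold change for TALE was -0.41 (SE 0.26, edgeR adjusted p = 0.9997), and 10.2% of all regions had groups that did not overlap in that comparison.

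An MDM4 region that overlaps an exon (chr1:204521067-204522330) had the smallest unadjusted p of that gene. It was at 27.03, 28.86 and 36.75 CPM in untreated, 18.94, 22.37 and 26.09 CPM in TALE, and 30.42, 22.33 and 22.45 CPM in dCas9 libraries. The TALE libraries were all below the untreated ones, with a log2 fold change of -0.44 (SE 0.192, unadjusted p = 0.0235, adjusted p = 0.9997 in edgeR), and -0.29 without untreated library 3. An intronic region (chr1:204503706-204505423) had a log2 fold change of 0.39 for dCas9 (SE 0.18, unadjusted p = 0.0317, adjusted p = 1.0 in edgeR). Over the 12 tested regions of MDM4, the log2 fold changes against untreated ran from -0.44 to 0.48 with TALE and from -0.42 to 0.39 with dCas9. The sign thus differed between regions within each comparison, and none passed.

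The RB1 region with the smallest unadjusted p overlaps an exon of an annotated transcript far from the canonical start, with its centre 75962 bp after it (chr13:48953722-48953977). It had a peak in all 9 samples, with 12, 9 and 9 counts in untreated, 15, 26 and 15 in TALE, and 18, 22 and 17 in dCas9 libraries. Every treated library was above every untreated one in counts and in CPM, where 10.2% of all regions did not overlap between TALE and untreated and 10.3% between dCas9 and untreated, in either direction. The log2 fold changes were 1.01 for TALE (SE 0.411, unadjusted p = 0.016, adjusted p = 0.9997 in edgeR) and 0.95 for dCas9 (SE 0.411, unadjusted p = 0.0227, adjusted p = 1.0 in edgeR), comparisons that share the untreated libraries. The TALE value was 0.63 without TALE library 2 and 1.33 without TALE library 3. The region before the RB1 start (chr13:48876916-48877212) had too few counts for a test, with 0, 10 and 0 in untreated, 0, 2 and 1 in TALE, and 6, 3 and 0 in dCas9 libraries.

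CDKN1B had 1 tested region, intronic to a longer transcript and with its centre at -22965 bp from the canonical start (chr12:12847225-12847450, with 14 CpG sites). It was at 5.53, 5.94 and 6.54 CPM in untreated, 3.70, 2.75 and 4.67 CPM in TALE, and 5.14, 4.93 and 2.16 CPM in dCas9 libraries. All untreated libraries were above all treated ones, where 10.2% and 10.3% of all regions had groups that did not overlap with TALE and dCas9, in either direction. With TALE the log2 fold change was -0.66 (SE 0.433), and with dCas9 it was -0.52 (SE 0.424). Without dCas9 library 3 the dCas9 value was -0.26. The adjusted p in edgeR was 0.9997 and 1.0.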

How the data were processed

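RNA-seq and MeDIP-seq of 18 samples, 9 per assay in 3 groups of 3, were grouped by their titles. The authors deposited unnormalized RNA counts for each gene symbol, with alignment by STAR 2.3.0 to hg19 per the submitters' processing notes; the counter, annotation and use of strand are not given in the sources used here. Per the labels' protocols the cDNA came from an amplification kit for FFPE RNA, which can favour some transcripts over others. MeDIP counts were deposited for each region, also unnormalized; per the submitters' processing notes BWA 0.7.5, Picard, MACS2 and bedtools were used. The authors' peak lists, deposited for each sample, carry a score, a fold enrichment and −log10 p-values and q-values; here they served only to count peaks. All value columns were matched to samples by name.

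Each assay was fitted with edgeR 4.0.16 in R 4.3.3 (quasi-likelihood test, TMM factors, filterByExpr with a minimum of 10 counts, group means over 9 libraries). p-values were adjusted by Benjamini-Hochberg over all 13786 genes or 105652 regions, with a threshold of 0.05 and a prior count of 0.125 for fold changes. CPM values use TMM-scaled totals. Permutation tests used log2(CPM + 0.5). Positions are from GENCODE on GRCh37, and 63.5% of the gene names matched. The test was checked on simulated data. Alternatives were DESeq2 1.42.0 and its size factors, no filter, a replicate block, a fit of 2 groups and leaving out each library.

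The members and lists were chosen with earlier results of these data known. Named were all members, the gene of each list with the smallest unadjusted p, the 2 with the highest level per kb, and E2F1, CDK4, CDK6, CDKN1C and CDKN2D; some items that the rule names are not reported here. Named regions lie within 2 kb of an annotated start or have the smallest unadjusted p of their gene.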

Additional observations from a re-analysis of the deposited data

How the results depend on the processing

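None of the 6 tested members in the 3 comparisons passed the threshold under the RNA alternatives. Of the 29 tested regions at members, 9 were recomputed, for TALE and dCas9 against untreated, and none passed with DESeq2 size factors, no filter, the replicate block or 1 library left out. CDKN2A, CDKN2B and MTAP were not recomputed. RNA genes called were 74, 89 and 77 with no filter on low counts (TALE against untreated, dCas9 against untreated, TALE against dCas9), and 9 and 29 for the first 2 with DESeq2. For dCas9 against untreated the count was 8 with only the 2 groups in the fit and 2 with the replicate block, against 4. Leaving out 1 library gave 2 to 16, 2 to 10 and 0 to 21 genes. MeDIP regions called were 2 for dCas9 against untreated and 0 for TALE against dCas9 with no filter, 0 for dCas9 against untreated with the replicate block, and 0 to 2, 0 to 3 and 0 to 1 with 1 library left out. The cause of these moves was not tested.

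Replicate numbers showed no clear pairing of the samples: the correlation of same-numbered deviations between groups ran from -0.284 to 0.103 in RNA. For replicate 3 of untreated and dCas9 it was 0.09, where the highest value with another number was -0.04. For replicate 1 of TALE and dCas9 it was -0.284, where the highest value with another number was 0.185. With no filter the RB1 log2 fold change turned to 0.0305 for TALE against untreated and 0.0064 for TALE against dCas9. Leaving out 1 library turned the sign of values near 0. For RNA of TALE against untreated the ranges were -0.0476 to 0.0476 for RB1, -0.288 to 0.32 for CDKN1A, -0.057 to 0.11 for CDKN1B and -0.029 to 0.0713 for CDKN2C. For dCas9 against untreated they were -0.0421 to 0.074 for RB1 and -0.102 to 0.0377 for MDM4. For TALE against dCas9 they were -0.0784 to 0.0414 for RB1, -0.0759 to 0.0027 for MDM2 and -0.486 to 0.122 for CDKN1A. In MeDIP they were -1.51 to 0.363 for the CDKN1A region with TALE, -0.403 to 0.054 for the CDKN2C region with dCas9, -0.239 to 0.0416 and -0.0825 to 0.198 for the first MDM2 region with TALE and dCas9, and -0.279 to 0.0351 for the MDM4 region after the start with dCas9. For MDM4 RNA with TALE the value stayed between -0.282 and -0.188, with adjusted p from 0.467 to 1.0 over all alternatives.

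The stretch without MeDIP regions was 6.075 Mb with the minimum of 10 counts against 1.866 Mb, and the protein-coding RNA counts within the longer one were 14 to 46 with 1 library left out. The lengths per kb and these left-out counts were alternatives chosen after seeing the data.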

Other observations

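Within the 6.075 Mb of chromosome 9 nearly without MeDIP counts, most RNA counts fell on a processed pseudogene rather than on a protein-coding gene. KHSRPP1 (21695175 to 21696942), a processed copy of KHSRP and chosen after its values were seen, had 381 counts in all. It had 39, 32 and 19 counts in untreated, 45, 73 and 28 in TALE, and 45, 45 and 55 in dCas9 libraries. Reads of a processed copy and of its parent gene can be hard to tell apart, so its counts are uncertain.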
